A study of Mus musculus with 8 samples.

Results

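Tip60 KD embryonic stem cells (ESCs) were compared directly with Hdac6 KD ESCs, to ask which genes and functions separate the 2 single knockdowns. The comparison holds the 2 arrays of each knockdown, 4 of the 8 arrays in the series, and 17439 genes were tested in it. KD stands for knockdown. The cells were mouse E14 ESCs, a line that grows without feeder cells, kept in serum medium with LIF. Each culture was infected with lentivirus carrying a short hairpin RNA and collected 72 hours after infection. The Tip60 KD arrays carry the hairpin against Tip60 and the Hdac6 KD arrays the hairpin against Hdac6. The control KD arrays (a hairpin against EGFP, which these cells lack) and the double KD arrays (Tip60 and Hdac6 together) stand beside them as a description. Each group has 2 biological replicates, lettered A and B, and each gene was targeted with 1 hairpin, so an effect of a hairpin on other transcripts cannot be told apart from that of its target.

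Tip60, encoded by Kat5, is the acetyltransferase of the Tip60-p400 complex, which acetylates histones and exchanges a histone variant into nucleosomes. In ESCs the complex is known for silencing genes of differentiation and for keeping proliferation genes on. Hdac6 is a deacetylase best known for acting on tubulin and on the chaperone Hsp90 in the cytoplasm, and the study asked how it relates to that complex in ESCs.

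Signal is given throughout as log2 of the background-corrected intensity relative to the 75th percentile of its array, so that 0 is the level of that percentile. Differences are Tip60 KD minus Hdac6 KD, averaged over the replicate letters, and a positive difference means a higher signal in Tip60 KD. A gene was called where limma gave a Benjamini-Hochberg adjusted p under 0.1. The lowest values were set to a common floor of -2.71, the highest background limit among all 8 arrays. Among the 4 arrays compared alone this limit was lower, at -3.55, and served as an alternative. Across genes, replicates correlated with r of 0.986 in Tip60 KD, against 0.988 in Hdac6 KD. Of all spots, 94.4% in replicate A and 62.9% in replicate B of Tip60 KD were well above background, against 92.7% and 64.3% for Hdac6 KD, so that on these 4 arrays this share differed by letter more than by knockdown. All 8 ESC markers checked (Pou5f1, Sox2, Nanog, Zfp42, Esrrb, Dppa5a, Klf4 and Utf1) lay between 2.73 and 7.17 on the arrays compared, all above the floor. Each letter is 1 slide, and each group holds the same position on both slides, so position and knockdown cannot be told apart.

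The targeted genes separated the groups in opposite directions. Kat5 signal was 0.00 and 0.01 in Tip60 KD (replicates A and B), 1.52 and 1.53 in Hdac6 KD, 1.34 and 1.37 in control KD and -0.11 and 0.20 in double KD. Its difference was -1.52 (SE 0.09, adjusted p = 0.000513), or 2.87-fold. Hdac6 signal was 1.74 and 1.77 in Tip60 KD, against -0.28 and -0.32 in Hdac6 KD, 2.21 and 2.18 in control KD and 0.30 and 0.34 in double KD. Its difference was 2.05 (SE 0.05, adjusted p = 0.000192), or 4.16-fold. Each target was thus lowest where its hairpin was present, and Hdac6 signal lay between in Tip60 KD, below control KD and above Hdac6 KD. The probes lie at chr19:5603017-5603076 and chrX:7507261-7507320 on mm9, the build of the deposited files. A second probe of each gene gave -1.71 for Kat5 and 2.05 for Hdac6.

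The knockdowns differed in many genes and mostly by a little. Of the 17439 genes, 7638 (43.8%) were called, 4046 (23.2%) higher in Tip60 KD and 3592 (20.6%) lower. The median absolute difference of the called genes was 0.38, and 77.7% of them differed by less than 1.5-fold. Only 343 genes (1.97%) were called and at least 2-fold apart. Of these, 206 (1.18%) were higher in Tip60 KD and 137 (0.786%) lower. The median difference over all genes tested was 0.02. The number of calls depended on the pairing: 4291 genes were called with no replicate block, and all 4291 were among the 7638 and kept their direction. The number of calls also fell whichever of the compared arrays was left out, in Tip60 KD as in Hdac6 KD. Each such fit leaves that group without a replicate. The count of 2-fold genes stayed between 277 and 622 over every setting tried, and was highest with a lower floor.

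**Figure D1:**
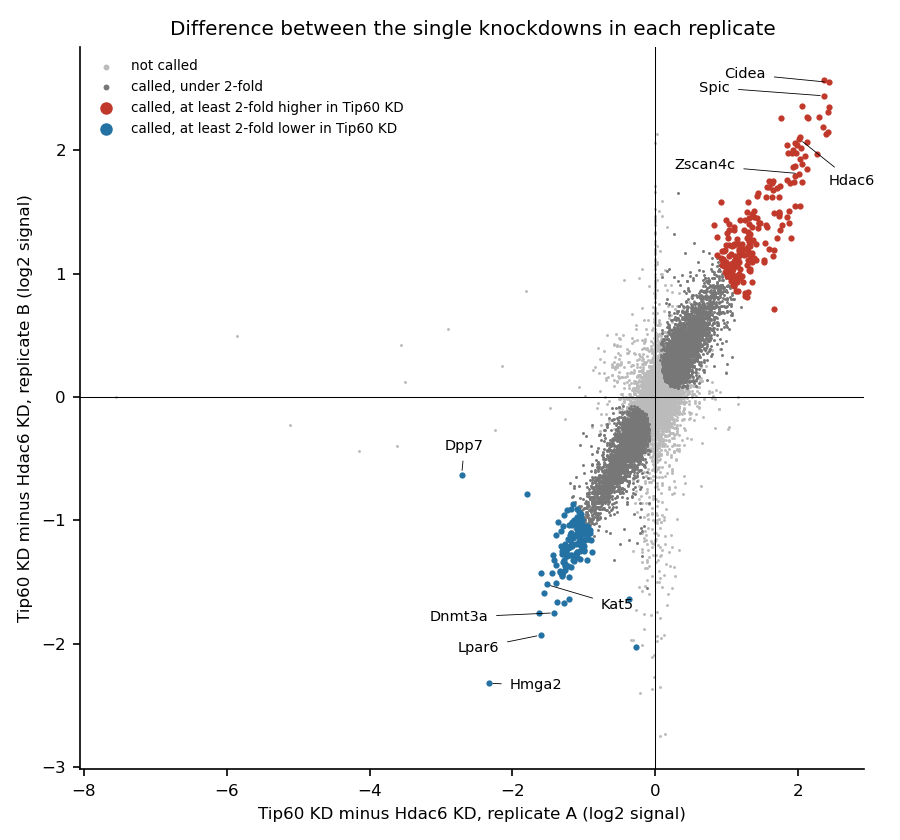
Each point is a gene, with the log2 difference between Tip60 KD and Hdac6 KD in replicate A on the horizontal axis and in replicate B on the vertical axis, and colours mark the call and its direction. The 2-fold genes lie along the diagonal in both directions. Of 23 genes whose 2 differences lie more than 2 log2 units apart, 22 have the wider gap between the Tip60 KD arrays, and only Dpp7 among the 23 was called.

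The 12 largest differences toward Tip60 KD ran from 2.12 to 2.49, or 4.34-fold to 5.62-fold. Spic encodes an Ets-family transcription factor. Its signal was 0.04 and 0.07 in Tip60 KD against -2.32 and -2.38 in Hdac6 KD. Control KD, at -2.32 and -2.28, was at the Hdac6 KD level, and double KD, at -0.12 and -0.16, near the Tip60 KD level. The difference was 2.40 (SE 0.06, adjusted p = 0.000192). Notch4 encodes a receptor of the Notch family. It read 1.98 and 2.25 in Tip60 KD, against -0.15 and -0.03 in Hdac6 KD, a difference of 2.20 (SE 0.07, adjusted p = 0.000206). Slc11a1 encodes a metal ion transporter of phagocytic vesicles, with 0.88 and 0.64 in Tip60 KD, against -1.47 and -1.54 in Hdac6 KD (difference 2.27). Calcoco2 encodes a receptor that brings cargo to the autophagosome. It read 2.05 and 2.10 in Tip60 KD, against -0.01 and -0.26 in Hdac6 KD and -0.75 and -0.82 in control KD, and its difference was 2.21. Control KD was close to Hdac6 KD for Spic, Notch4 and Slc11a1, and below both knockdowns for Calcoco2.

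Cidea, which encodes a lipid droplet protein, had the largest difference and another arrangement. Its signal was 0.18 and -0.10 in Tip60 KD, against -2.26 and -2.65 in Hdac6 KD, -0.04 and -0.24 in control KD and 0.13 and -0.16 in double KD. Only the Hdac6 KD arrays stood apart, at a difference of 2.49 (SE 0.07, adjusted p = 0.000192).

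The other 7 of these 12 lie on chromosomes 10 (4) and 12 (3). The probe of each resembles that of another leading gene, so they cannot be read as separate observations. Their probes, 60 bases each, share sequence, as the stretches of 30 bases below show for the pairs that resemble each other. Positions are those of the whole probe on mm9, sequences run 5′ to 3′, and capitals mark the bases at which the members of a pair differ.
Gm4312 (chr10:99803961-99804020, plus strand): atagacaaggaagacctgcacaaaAcaGTG
ENSMUST00000167995 (chr10:99859176-99859235, minus strand): atagacaaggaagacctgcacaaaGcaAAA
LOC641136 (chr12:89276065-89276124, minus strand): gctGttaaAtaTaacttcatttggcatACT
Gm8300 (chr12:88858331-88858390, plus strand): gctCttaaGtaAaacttcatttggcatGAG
Over the whole overlap, the first pair was identical at 54 of 60 bases and the second at 51 of 59. AK139496, also on chromosome 12, matched Gm8300 at 53 of 60 bases, and Gm4303 and the unnamed probe A_55_P2090279 on chromosome 10 shared a stretch of 30 bases without a difference. Transcripts of one member can therefore light the probe of another.

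The genes with these similar probes moved together between the knockdowns. Gm4312 read 1.87 and 1.88 in Tip60 KD, against -0.42 and -0.39 in Hdac6 KD and -0.39 and -0.46 in control KD (difference 2.28, SE 0.05, adjusted p = 0.000192). Gm8300 read 0.44 and -0.18 in Tip60 KD, against -1.83 and -2.16 in Hdac6 KD and -1.08 and -1.38 in control KD. Its difference was 2.12 (SE 0.09, adjusted p = 0.000299), and its other probes gave 1.65 and 1.38. For the chromosome 10 members control KD was close to Hdac6 KD, and for the chromosome 12 members it lay between the knockdowns. The differences of all 7 lay between 2.12 and 2.47.

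**Figure D2:**
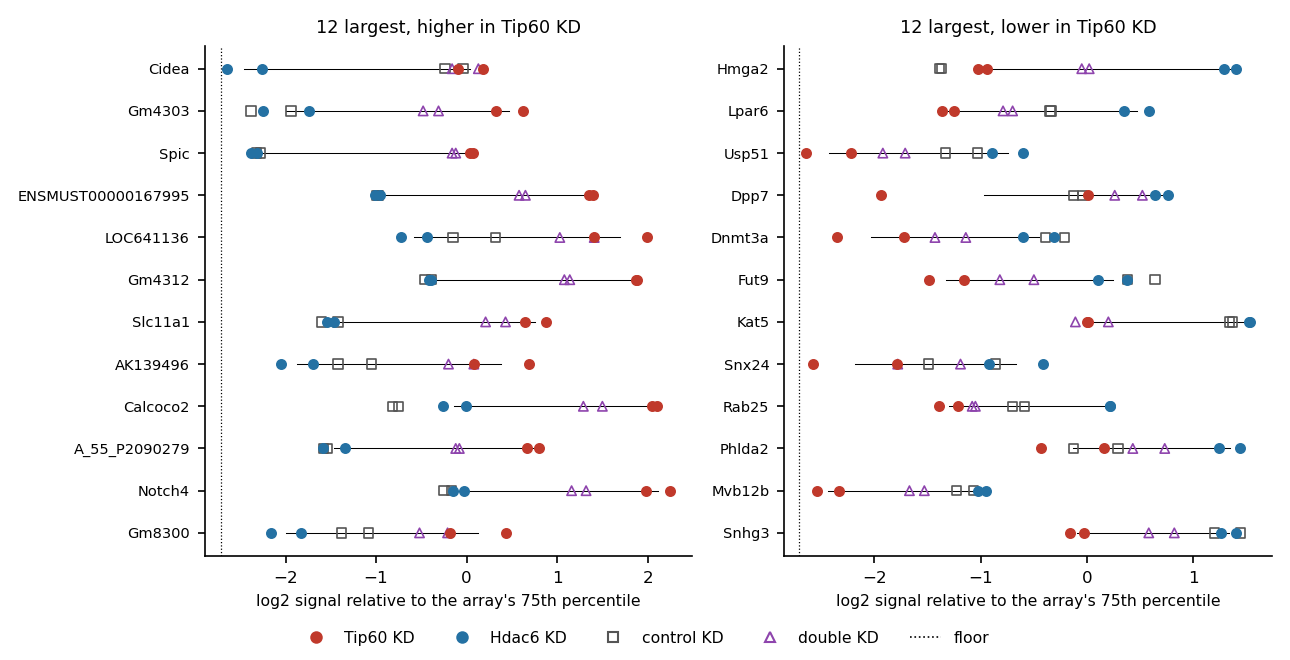
Signal of the 12 genes with the largest difference in each direction, on the log2 scale, with 1 symbol per array and a line between the means of Tip60 KD and Hdac6 KD. Filled circles are the knockdowns, whose separation follows from choosing genes by the size of the difference, open squares are control KD, open triangles are double KD and the dotted line is the floor at -2.71.

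The 12 largest differences toward Hdac6 KD ran from -1.43 to -2.33. Hmga2, which encodes an architectural chromatin protein and is a classical target of let-7 microRNAs, led them. Its signal was -0.94 and -1.03 in Tip60 KD, against 1.40 and 1.29 in Hdac6 KD, -1.37 and -1.39 in control KD and -0.05 and 0.02 in double KD. It was thus high in Hdac6 KD, intermediate in double KD and low elsewhere, with a difference of -2.33 (SE 0.07, adjusted p = 0.000192) and 5.02-fold. A second Hmga2 probe gave -1.20. Phlda2, an imprinted gene that restrains placental growth, read 0.16 and -0.43 in Tip60 KD, against 1.44 and 1.24 in Hdac6 KD and 0.29 and -0.13 in control KD (difference -1.47). Rab25, a GTPase of epithelial vesicle traffic, read -1.39 and -1.21 in Tip60 KD, against 0.22 in both Hdac6 KD arrays and -0.70 and -0.59 in control KD (difference -1.52). For Hmga2 and Phlda2 control KD was near Tip60 KD, and for Rab25 it lay between.

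Kat5 itself was among the 12. Others in this direction were low in Tip60 KD, with control KD near Hdac6 KD. Dnmt3a encodes a de novo DNA methyltransferase. It read -1.72 and -2.35 in Tip60 KD, against -0.31 and -0.60 in Hdac6 KD and -0.21 and -0.39 in control KD, with a difference of -1.58 (SE 0.11, adjusted p = 0.000704). Fut9, the fucosyltransferase that makes a carbohydrate antigen of the ESC surface, read -1.16 and -1.49 in Tip60 KD, against 0.38 and 0.10 in Hdac6 KD and 0.64 and 0.38 in control KD (difference -1.57, and -0.72 by a second probe). Snhg3, a host gene of small nucleolar RNA, read -0.03 and -0.16 in Tip60 KD, against 1.40 and 1.26 in Hdac6 KD and 1.44 and 1.20 in control KD (difference -1.43). Mvb12b, a subunit of the ESCRT machinery, followed the same order (difference -1.45). The lysophosphatidic acid receptor gene Lpar6 (-1.76), the deubiquitinase gene Usp51 (-1.68) and the sorting nexin gene Snx24 (-1.52) had control KD between the knockdowns. Dpp7, a lysosomal peptidase gene, is the exception to the agreement between replicates. It read -1.94 and 0.01 in Tip60 KD against 0.76 and 0.64 in Hdac6 KD, a difference of -2.71 in replicate A and of -0.63 in replicate B. The mean was -1.67 (SE 0.55, adjusted p = 0.0658), and its call was lost in 6 of 22 alternatives.

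Some genes were at the floor on both arrays of one knockdown, where only a lower bound of the difference is known, given this background subtraction. In Hdac6 KD, 249 genes lay at the floor on both arrays and above it on both Tip60 KD arrays, and 135 genes had the opposite arrangement. These genes passed the filter on dim probes only through the group in which they were high, so their direction was fixed by that choice. Sfrp5, a secreted inhibitor of Wnt ligands, read -0.65 and -0.82 in Tip60 KD and lay at the floor in Hdac6 KD and control KD, so it was at least 3.93-fold higher in Tip60 KD (a log2 difference of 1.98, and of 1.63 with the normexp background correction). The uncharacterised 4930486L24Rik (-0.28 and -0.36 in Tip60 KD) was at least 5.24-fold higher and the pseudogene Usp-ps at least 3.67-fold higher. Rnf144a, a ubiquitin ligase gene at -1.45 and -1.34 in Hdac6 KD, was at least 2.49-fold lower in Tip60 KD. The non-coding Lockd and the cyclin-dependent kinase regulator gene Cables1 were at least 2.39-fold and 2.28-fold lower.

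The level of the 2-fold genes without either knockdown was read from control KD, whose cells were infected with the EGFP hairpin. Among the 206 genes higher in Tip60 KD, control KD was closer to Hdac6 KD for 156 (75.7%), and double KD was closer to Tip60 KD for 185 (89.8%). Among the 137 lower in Tip60 KD, control KD was closer to Hdac6 KD for 94 (68.6%), and double KD was closer to Tip60 KD for 109 (79.6%). Double KD lay between the knockdowns for 175 of the 206 and 135 of the 137. These counts describe where the means lie and carry no test, and the same shares over all genes were not computed.

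Functions were described with 43 gene lists. The share of all genes called, 43.8%, is the background against which the counts of a list are to be read, and the median difference of all genes was 0.02. The counts include members at the floor on both arrays of 1 knockdown, such as Eda2r, Gata2 and Col1a1, whose direction the filter on dim probes fixed.

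p53 targets were mostly lower in Tip60 KD than in Hdac6 KD. Of 24 tested, 15 were lower and 2 higher, and the median difference was -0.32. Ccng1, a cyclin gene switched on by p53, read 1.80 and 1.97 in Tip60 KD, against 3.23 and 3.25 in Hdac6 KD, 3.68 and 3.67 in control KD and 1.77 and 1.99 in double KD. Tip60 KD and double KD were low and the others high, and the difference was -1.36 (SE 0.08, adjusted p = 0.000482). Zmat3 (-0.97) and the death receptor gene Tnfrsf10b (-0.94) were lower as well. Sesn1, a stress-induced gene of the same list, was higher by 1.04. Trp53 itself (-0.04, adjusted p = 0.676) and the cell cycle inhibitor gene Cdkn1a (0.05, adjusted p = 0.557) were not called. In the Bcl2 family of apoptosis regulators 7 of 17 were lower and 1 higher (median -0.23). The share called was 47.1%, near the 43.8% over all genes. The largest were Bok (-1.05), Bid (-0.77) and the p53 target Bbc3 (-0.44). Bok lay at or near the floor in Tip60 KD (-2.63 and -2.71), and 12 of the 17 lay above the floor on all 4 arrays.

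Junction genes of epithelia also had lower signal in Tip60 KD. Of 23 cadherins, claudins and tight junction genes, 14 were lower and 2 higher (median -0.42). Cldn7 read -0.11 and -0.06 in Tip60 KD, against 1.17 and 1.28 in Hdac6 KD and 1.76 and 1.80 in control KD, a difference of -1.31 (SE 0.05, adjusted p = 0.000299). Cldn6 (-1.04) and Cldn3 (-0.90), further claudins that seal tight junctions, followed, and Cdh1, which encodes E-cadherin, differed by -0.54. Ocln read -2.71 and -2.00 in Tip60 KD, against -0.92 and -1.20 in Hdac6 KD (difference -1.29, adjusted p = 0.0681), and its call was lost in 7 of 22 alternatives. Jam2, another adhesion gene, was higher by 0.87, and by 1.6 and 0.76 with its other probes. Among actin and SRF targets, 8 of 17 were lower and 2 higher (median -0.23). Actb, the gene of cytoplasmic beta-actin, read 5.42 and 5.4 in Tip60 KD, against 6.43 and 6.59 in Hdac6 KD and 6.06 and 5.95 in control KD. Control KD was thus between the knockdowns, which differed by -1.10 (SE 0.08, adjusted p = 0.000698).

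By count of calls, matrix genes went the other way, while their summed signal did not. Of 24 collagens, laminins and integrins, 12 were higher in Tip60 KD and 4 lower (median 0.19). Their summed signal was 160 and 149 in Tip60 KD, against 162 and 154 in Hdac6 KD and 183 and 170 in control KD. Col4a1, a chain of basement membrane collagen, read 0.57 and 0.49 in Tip60 KD, against -0.68 and -0.66 in Hdac6 KD and -1.12 and -1.07 in control KD (difference 1.20). Its neighbour Col4a2 differed by 1.23. Itga5, the fibronectin receptor subunit, differed by 1.07, and Fn1, fibronectin itself, by -0.34. Of 11 fibroblast markers tested, 5 were higher and 1 lower (median 0.43), with Col1a1 at -1.30 and -1.60 in Tip60 KD and at the floor in Hdac6 KD. The summed signal of that list, which is dominated by Fn1, was 78.7 and 71.7 in Tip60 KD, against 85.1 and 80.5 in Hdac6 KD. The other 9 of its 20 genes did not pass the filter on dim probes. In bulk RNA, a larger share of cells of a type and more RNA per cell cannot be told apart, and the part of other cell types in these differences was not tested.

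Glutathione and oxidant defence genes were called often and in both directions. Of 29 tested, 17 were lower and 7 higher (median -0.35). Srxn1, which repairs oxidised peroxiredoxins, read 0.88 and 0.72 in Tip60 KD, against 2.05 and 1.93 in Hdac6 KD and 0.84 and 0.74 in control KD. Only the Hdac6 KD arrays were high, at a difference of -1.19 (SE 0.06, adjusted p = 0.000367). Glutathione reductase, encoded by Gsr, differed by -0.72, Gsto1 by -0.89 and Nfe2l2, the transcription factor that drives such genes, by -0.47. Higher in Tip60 KD were glutathione synthetase (Gss, 0.68) and the peroxidase gene Gpx1 (0.64). 

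**Figure D3:**
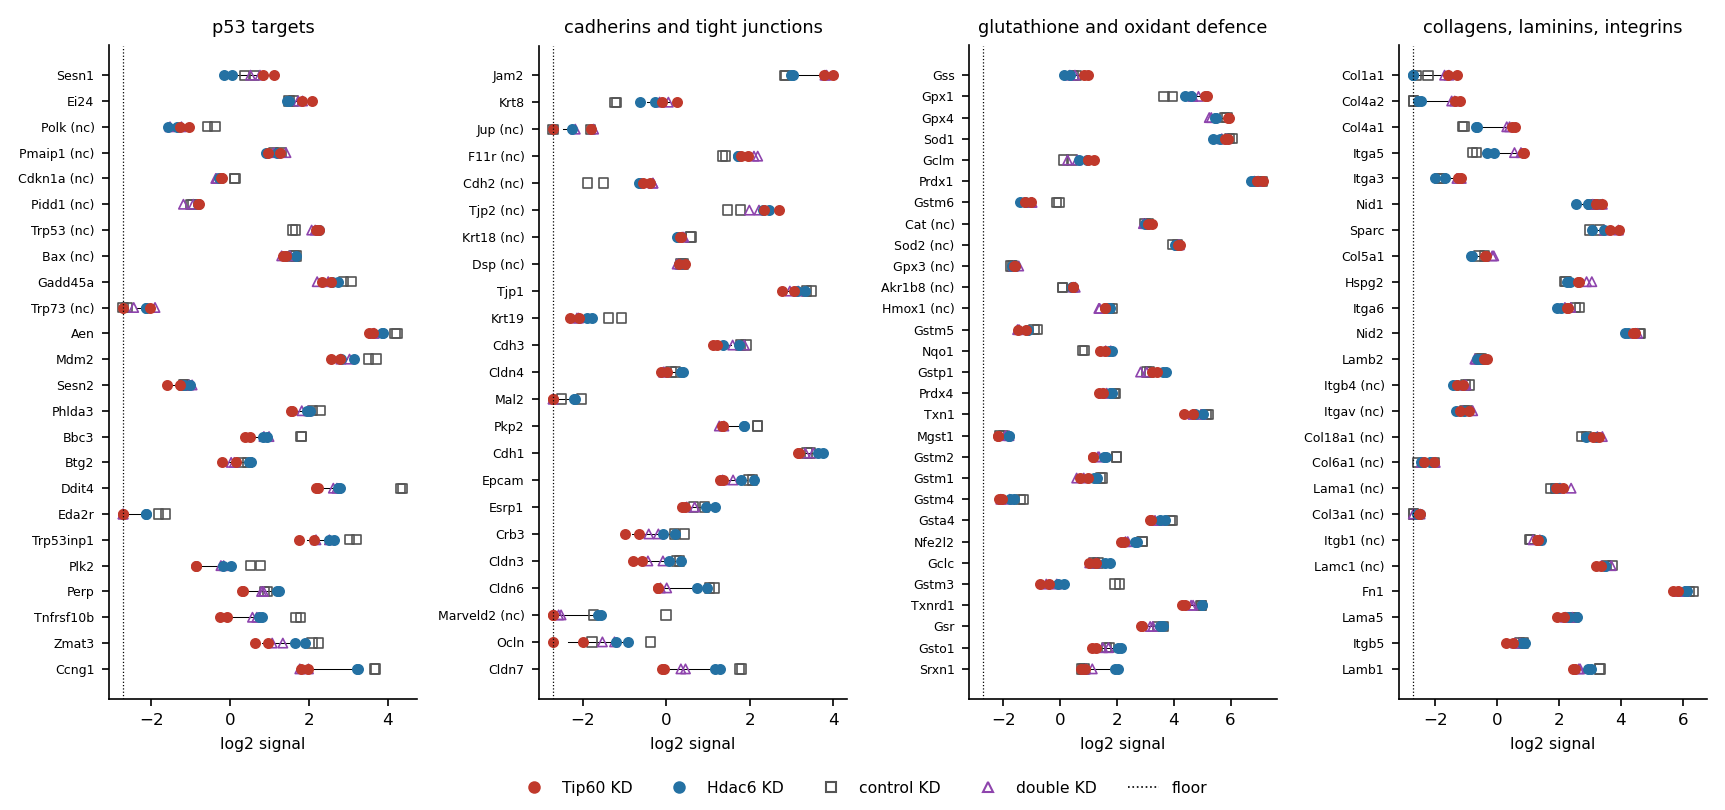
Signal of every tested member of 4 lists on the log2 scale, ordered by the difference, with 1 symbol per array and (nc) after genes that were not called. The median differences were -0.32 for p53 targets, -0.42 for cadherins and tight junctions, -0.35 for glutathione and oxidant defence, and 0.19 for collagens, laminins and integrins.

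Among cell cycle genes the differences were small and mostly toward Hdac6 KD. In the G2 and mitosis list, 15 of 28 were lower in Tip60 KD and 2 higher (median -0.20), such as the mitotic kinesin gene Kif11 (-0.61) and Birc5, which encodes survivin (-0.60), though other Birc5 probes gave 0.03 and -0.11, neither called. In the replication list, 11 of 28 were lower and 5 higher (median -0.10). The ribonucleotide reductase gene Rrm2 differed by -0.75 and the helicase gene Mcm4 by -0.62. Orc4, a subunit of the origin recognition complex, read 0.56 and 0.46 in Tip60 KD, against -0.90 and -0.95 in Hdac6 KD and 0.24 and 0.13 in control KD, a difference of 1.43, while its second probe gave 0.56. Ccnd2, a D-type cyclin gene, read 0.43 and 0.32 in Tip60 KD, against -1.54 and -1.66 in Hdac6 KD and lay at the floor in control KD, a difference of 1.98. Ccnd2 and Hmga2 belong to the list of let-7 and oncofetal genes, in which 8 of 19 were lower and 2 higher (median -0.18). Dicer1, which processes microRNAs, was lower in Tip60 KD (-1.19).

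Signalling lists held genes that moved in opposite directions. Of 17 Nodal and Lefty pathway genes, 11 were lower and 4 higher (median -0.31). The ligand gene Nodal read 3.62 and 3.45 in Tip60 KD, against 2.68 and 2.51 in Hdac6 KD and 2.13 and 2.11 in control KD (difference 0.95), while its inhibitor and target Lefty1 read 1.33 and 1.20, 2.18 and 2.06, and 0.75 and 0.62 in the same order (difference -0.86). The effector gene Smad3 differed by -0.63. Of 18 FGF and ERK feedback genes, 9 were lower and 4 higher (median -0.22). The feedback inhibitor genes Spry1 (-1.20), Spred1 (-0.89) and Spred2 (-0.76) were lower in Tip60 KD. Myc, a driver of growth, was high in both knockdowns relative to control KD but higher in Tip60 KD: 3.57 and 3.33 against 2.35 and 2.16, with 0.34 and 0.26 in control KD (difference 1.19, SE 0.07, adjusted p = 0.000489). The Myc, Max and Mxd list as a whole was even, with 3 higher and 3 lower of 12 (median -0.07). In the Wnt list 5 of 17 were higher and 3 lower (median 0.09), with the receptor gene Fzd7 at -1.0 and the inhibitor gene Sfrp1 at 0.91. The Wnt receptor gene Fzd5 is uncertain. It read -1.77 and -1.68 in Tip60 KD, against -2.71 and -2.12 in Hdac6 KD, near the floor, and was called at 0.69 (adjusted p = 0.0283). A second probe was called at -0.37, and with a lower floor the direction reversed to -0.44. In the BMP list 3 of 15 were higher and 4 lower (median 0.01), with the receptor gene Bmpr1a at -0.85 and Id3 at 0.62.

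Pluripotency genes were called in both directions. Of 24 core and naive genes, 10 were higher in Tip60 KD and 6 lower (median 0.08, 66.7% called). Pou5f1, the core factor Oct4, was 4.17 and 4.13 in Tip60 KD, against 3.68 and 3.55 in Hdac6 KD and 3.16 and 3.13 in control KD (difference 0.53). Dppa2 was higher by 0.69 and Prdm14 by 0.54. The orphan nuclear receptor gene Nr5a2 was lower (-1.0, and -0.48 by a second probe). Genes of the formative and primed epiblast were more often lower, 8 of 17 against 4 higher (median -0.15). Besides Dnmt3a they included Sox4 (-0.99, with other probes at -0.35 and -0.02, the last not called), while the pioneer factor gene Foxd3 was higher by 0.85. 

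Markers of other early lineages gave no single direction. Of 10 trophectoderm markers tested, 4 were higher and 3 lower in Tip60 KD (median 0.16). Tfap2c (-1.03) and Rhox6 (-0.97) were lower, and Eomes (0.67) was higher by its brighter probe, while its second probe gave -0.05. Of 10 primitive endoderm markers, 4 were higher and 1 lower (median 0.08), the largest being Col4a1 and Col4a2 above, while Sox17 lay between the floor and -2.35 on the arrays compared. In the germ layer list 5 of 14 were higher and 1 lower (median 0.11), but only 7 of the 14 lay above the floor on all 4 arrays. Of those called, Pax6 lay at the floor in Hdac6 KD and Sox11 in Tip60 KD, so the filter fixed their direction.

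The neurofilament gene Nefl read 0.17 and 0.18 in Tip60 KD, against -1.21 and -1.28 in Hdac6 KD and -1.79 and -2.17 in control KD (difference 1.42, SE 0.11, adjusted p = 0.000794). In the intermediate filament list 7 of 15 were higher and 4 lower (median 0.22), and the other neuronal filaments Prph (1.06) and Nefh (0.88) were among the higher ones.

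Of 8 two-cell-like markers tested, 3 were higher in Tip60 KD and none lower (median 0.12). The 3 were Zscan4c, Zscan4f and Gm5039. Zscan4 genes encode DNA-binding proteins of the two-cell embryo that a small share of ESCs expresses at a time. Zscan4c read 1.51 and 1.36 in Tip60 KD, against -0.51 and -0.45 in Hdac6 KD, -0.39 and -0.37 in control KD and 1.17 and 1.26 in double KD (difference 1.91, SE 0.07, adjusted p = 0.000299). The arrays with Tip60 knocked down were thus high and the others low. Zscan4f gave a similar difference of 1.90. Other genes of that list did not differ to this extent: Zfp352 gave -0.16 and Usp17la 0.12, neither called. The probes of Zscan4a and Zscan4c, shown next with the differing bases in capitals, were identical at 56 of 58 bases, so the family counts as 1 observation.
Zscan4a (chr7:11379679-11379738, minus strand): aaatgcattgcctcttcagacatctcatAT
Zscan4c (chr7:11595751-11595810, plus strand): aaatgcattgcctcttcagacatctcatGC

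Chromatin regulators were described by complex and by enzyme class. Of 18 Tip60-p400 subunits, 8 were higher in Tip60 KD and 3 lower (median 0.08). Apart from Kat5 no subunit differed by 2-fold. Actl6a, the actin-like subunit, read 4.66 and 4.58 in Tip60 KD, against 4.13 and 3.96 in Hdac6 KD (difference 0.57), Dmap1 differed by 0.54, Yeats4 by 0.47 and the ATPase gene Ep400 by 0.38. Among histone acetyltransferases 2 of 15 were higher and 4 lower, the targeted Kat5 included (median 0.01). Among histone deacetylases and sirtuins 6 of 17 were higher, the targeted Hdac6 included, and 5 lower (median 0.13). Hdac7, another class II deacetylase, was higher in Tip60 KD by 0.73, Hdac2 by 0.57, and the mitochondrial Sirt4 lower (-0.67). In the Polycomb and DNA methylation list 9 of 29 were higher and 8 lower (median -0.03). Suz12, a core subunit of Polycomb repressive complex PRC2, read 3.60 and 3.40 in Tip60 KD, against 2.32 and 2.18 in Hdac6 KD, 4.02 and 3.87 in control KD and 2.91 and 2.77 in double KD. It was lowest in Hdac6 KD, at a difference of 1.25 (SE 0.05, adjusted p = 0.000299). Its partner Rbbp7 differed by 0.79. Replication-dependent histones were higher for 7 of 14 and lower for 1 (median 0.22), and 9 of the 14 lay above the floor on all 4 arrays. The largest, H2ac18 at 1.02, lay at or near the floor in Hdac6 KD.

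**Figure D4:**
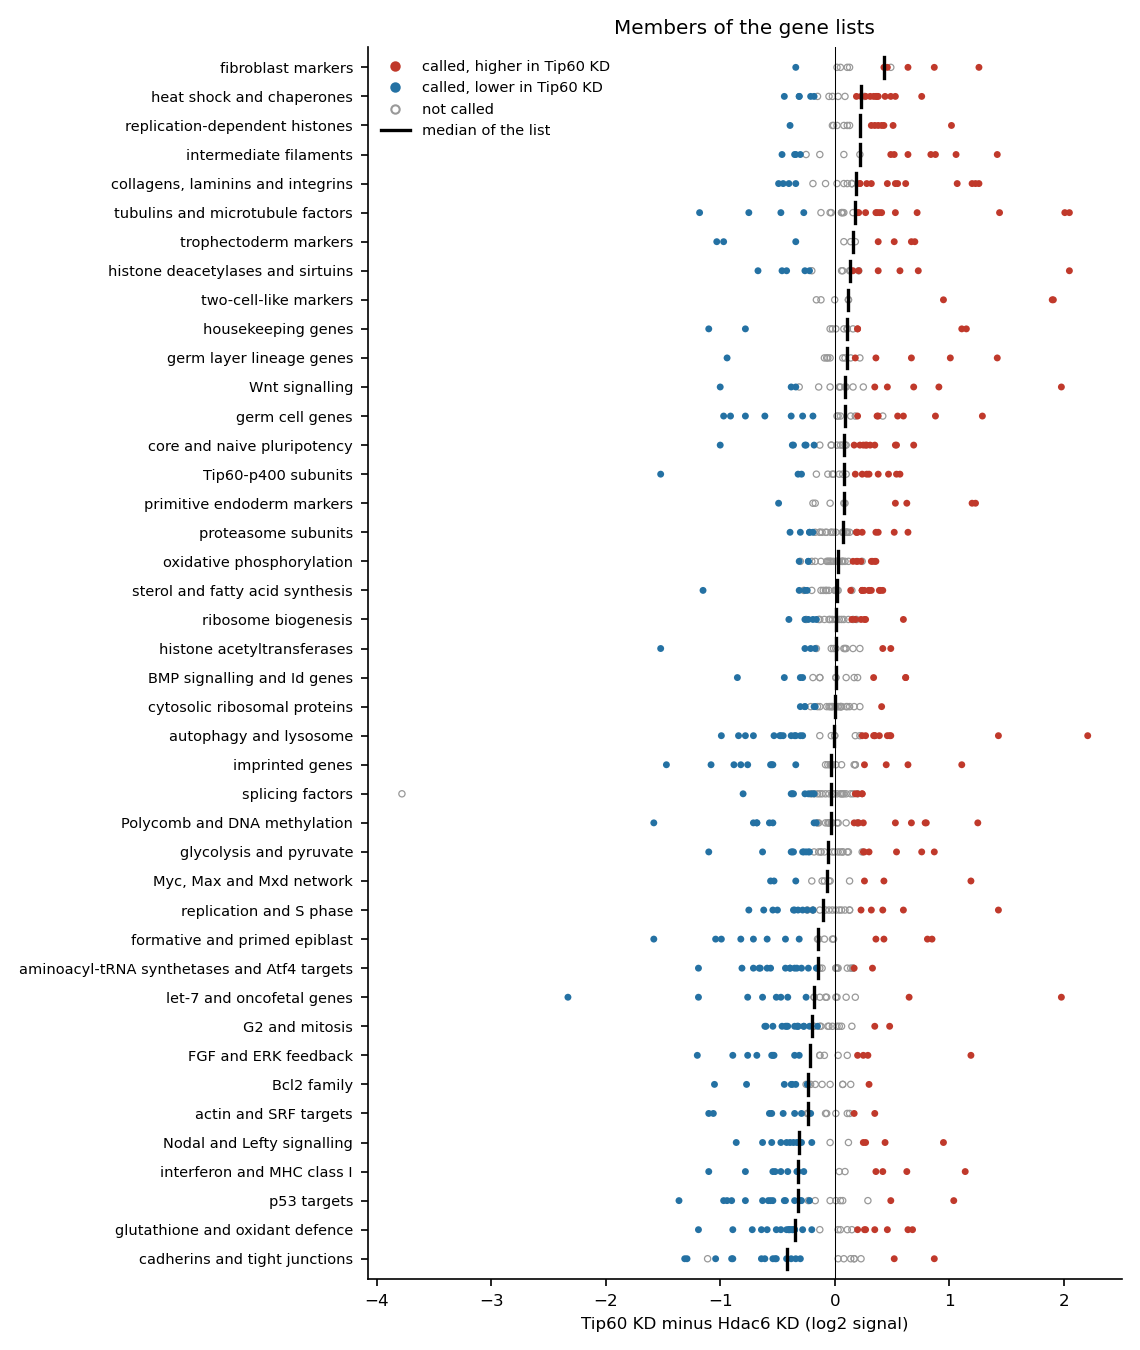
Difference between Tip60 KD and Hdac6 KD for every tested member of 42 gene lists, on the log2 scale, with 1 point per gene, filled where called, and a bar at the median of each list. Medians run from -0.42 for cadherins and tight junctions to 0.43 for fibroblast markers, and most lists hold called genes on both sides of 0.

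Because Hdac6 deacetylates tubulin and Hsp90, the genes of those systems were examined. Of 24 tubulins and microtubule factors, Hdac6 among them, 12 were higher in Tip60 KD and 4 lower (median 0.18). Tppp3, a tubulin-binding protein gene, read 1.32 and 1.39 in Tip60 KD, against -0.64 and -0.67 in Hdac6 KD and -1.10 and -1.20 in control KD (difference 2.01, SE 0.07, adjusted p = 0.000272). The neuronal tubulin gene Tubb3 differed by 1.44, and Map1b, a microtubule-associated protein gene, by -1.18. Of 23 heat shock and chaperone genes, 12 were higher and 5 lower (median 0.23). Dnajb4 (0.76) and the mitochondrial chaperonin gene Hspd1 (0.49) were higher, Hsph1 was lower (-0.44), and the Hsp90 genes Hsp90aa1 (-0.05) and Hsp90ab1 (-0.02) were not called. 

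In protein turnover lists, autophagy and lysosome genes were called for 24 of 30, 11 higher and 13 lower (median -0.01). Gabarapl2, of the family that coats autophagosomes, read 4.14 and 4.08 in Tip60 KD, against 2.67 in both Hdac6 KD arrays and 2.81 and 2.86 in control KD (difference 1.43, SE 0.06, adjusted p = 0.000299), and with Calcoco2 it led the higher ones. The lysosomal genes Cd63 (-0.99) and Ctsa (-0.84) were lower. Proteasome subunits were higher for 8 of 31 and lower for 5 (median 0.07), led by Psmd14 (0.64).

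Amino acid and lipid enzymes held single large differences. Among aminoacyl-tRNA synthetases and Atf4 targets, 15 of 30 were lower and 2 higher (median -0.15, 56.7% called). Phgdh, the first enzyme of serine synthesis, read 2.03 and 2.38 in Tip60 KD, against 3.39 in both Hdac6 KD arrays and 3.09 and 3.06 in control KD (difference -1.19), and Trib3 differed by -0.66. Among sterol and fatty acid genes 11 of 27 were higher and 4 lower (median 0.02), and the isoprenoid gene Idi1 was lower (-1.15). Glycolysis genes were higher for 6 of 30 and lower for 10 (median -0.06), with the kinase gene Pdk1 at -1.10. Oxidative phosphorylation genes were higher for 8 of 31 and lower for 3 (median 0.03), by at most 0.36 (Uqcrc1).

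The lists of ribosomal proteins, ribosome biogenesis and splicing were called no more often than genes at large (43.8%), and only ribosomal proteins much less often. Of 28 cytosolic ribosomal proteins, 1 was higher and 5 lower, with a median that rounds to 0.00 and 21.4% called. Ribosome biogenesis genes were higher for 6 of 26 and lower for 5 (median 0.01, 42.3% called), the largest being Dkc1 (0.60). Splicing factors were higher for 4 of 32 and lower for 8 (median -0.03, 37.5% called), with U2af2 at -0.80.

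Germ cell genes were higher for 7 of 20 and lower for 7 (median 0.09). Dazl, a germ cell RNA-binding protein gene, read 2.49 and 2.32 in Tip60 KD, against 1.16 and 1.07 in Hdac6 KD (difference 1.29), while Sycp3, a component of the meiotic chromosome axis, was lower (-0.91). Imprinted genes were higher for 4 of 24 and lower for 9 (median -0.03). Cdkn1c differed by 1.11, against -1.47 for Phlda2 and -0.88 for Meg3. Interferon and MHC class I genes were higher for 4 of 15 and lower for 9 (median -0.32), with the antiviral gene Oas1a at 1.14, Bst2 at -1.10 and B2m at -0.78. Of 14 housekeeping genes, 4 were higher and 2 lower (median 0.11). Polr2a, the largest subunit of RNA polymerase II, differed by 1.15 and the transferrin receptor gene Tfrc by 1.11, so that with Actb 3 of the 14 were at least 2-fold apart.

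The study's RT-qPCR panel was chosen on these samples, so its counts are no independent evidence. Of its 9 genes, 4 were higher in Tip60 KD and 4 lower (median -0.01). Besides Sfrp5 and Nefl above, Jam2 differed by 0.87, Gpsm2 by -1.07 and Gstm3 by -0.59, though a second Gstm3 probe gave -0.17 and was not called. Lefty2, for which double KD array A gave no value, was 3.66 and 3.64 in Tip60 KD, against 3.86 and 4.04 in Hdac6 KD, with 1.43 and 1.54 in control KD (difference -0.29, adjusted p = 0.0391), and its call was lost in 8 of 22 alternatives. Lamp2 (0.35) and Mal2 (-0.51, a lower bound with Tip60 KD at the floor) lost theirs in 3 and 4. Atp5g1 read 4.80 and 4.72 in Tip60 KD, against 4.85 and 4.68 in Hdac6 KD, with 2.97 and 2.95 in control KD, and the knockdowns differed by -0.01 (SE 0.07, adjusted p = 0.961). A second Atp5g1 probe was called at -0.86, and with the mean of the probes the gene was called at -0.43.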

How the data were processed

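Total RNA of 8 ESC cultures was labelled with Cy3 and hybridised to 1-colour Agilent arrays. Per the file headers, the authors extracted intensity values with Agilent Feature Extraction 10.7.1.1, which subtracted background, and positions refer to mm9. The deposited value table of the series holds log2 values of the same arrays, with column medians of 8.19 to 8.20, and served as an alternative only.

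Processed intensity was averaged over spots of a probe without outlier spots and divided by the 75th percentile of its array. It was floored at 0.153 of that percentile (log2 -2.71), the highest over the arrays of their lowest signal well above background, before log2 was taken. Of the 43020 spots per array none was saturated. Of the values on the 4 arrays compared, 5.15% were at the floor. Background medians on arrays A and B were 37.2 and 89.0 in Tip60 KD, 37.7 and 86.9 for Hdac6 KD, 61.0 and 114.3 for control KD, and 39.4 and 41.4 for double KD, and the number of arrays limits the precision. Probes above the floor on at least 2 of the 4 arrays were kept, and the brightest probe represented its gene, which left 17439 of 30397 genes. Symbols were updated through RefSeq accessions for 27234 of 39429 probes, and 1005 of 1015 list genes matched a probe. A name such as A_55_P2090279 is a probe without a gene name here.

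limma 3.58.1 (R 4.3.3) was fitted to all 8 arrays, with group and replicate letter as terms, and the contrast Tip60 KD minus Hdac6 KD was tested (2-sided) with Benjamini-Hochberg adjustment over all genes. Control KD and double KD enter the estimate of the spread (3 residual and 2.56 prior degrees of freedom). Where a spot was missing, the gene was fitted on the remaining arrays. The letter was used as a block because A minus B deviations correlated between every pair of groups (0.665 to 0.801, 6 pairs) and each letter is 1 slide and scan. On simulated data with 200 of 17276 genes changed, 94 of 109 genes at a log2 size of 1 and 88 of 91 at 2 were recovered, with 20 false calls. Smaller differences, which most calls had, were not simulated. Every simulated group was given the same letter effect, so the simulation does not test the block.

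Named genes were Kat5 and Hdac6, the 12 largest differences each way above the floor on all 4 arrays with 1 sign in both letters, the 3 largest bounds each way, at most 4 called members per list and the RT-qPCR panel. Other genes named, such as Cdh1 or Trp53, were chosen after their values were seen. The comparison, the members and the lists were chosen with earlier results of these data known. Alternatives covered the block, background correction, normalisation, floor, filter, probe choice and each array left out, and 1 (the same background on every array) was added after seeing the data. Not every gene that this rule names is printed.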

Additional observations from a re-analysis of the deposited data

How the results depend on the processing

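With no replicate block 4291 genes were called in place of 7638, and 2318 with the 4 compared arrays alone and no block. Leaving out 1 array at a time gave 4836 (without Hdac6 KD replicate B) to 8220 calls and 342 to 471 genes at least 2-fold apart. The 2-fold count of 343 rose to 622 with a lower floor, where 23527 genes were tested. Over the other settings, calls ranged from 5902 with no filter on dim probes to 7979 where 1 background was subtracted throughout. Of 184 named genes that were called, 136 kept call and direction under all 22 alternatives. Of all 185 named genes, direction reversed for 3: Fzd5 (-0.44 with a lower floor and with the floor of the 4 arrays), Atp5g1 (-0.04 to 0.03 with 1 array left out, and 0.02 without Hdac6 KD replicate A) and Ndufv1, which lacks a value on Tip60 KD array A (-4.55 in the deposited value table). The cause was not tested. Signal near background limits the dim genes, whose differences move with the floor and the background correction.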

Other observations

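Several gene families, chosen after their values were seen and in part members of the two-cell-like list, held genes called higher in Tip60 KD than in Hdac6 KD. All 4 Zscan4 genes tested differed by 1.90 to 2.07, 7 of 10 Pramel genes were called higher (differences of -0.08 to 1.44 over the 10) and 3 of 4 Usp17 genes were (0.12 to 1.64). Over all genes tested, 23.2% were called higher. Members of a family share sequence and are not separate observations. In the X-linked Fthl17 family of ferritin-like genes, 3 of 4 were higher, and Hdac6 KD was the group that stood apart: Fthl17f read 0.47 and 0.21 in Tip60 KD, against -1.06 and -0.88 in Hdac6 KD, 0.25 and 0.23 in control KD and 0.30 and 0.14 in double KD.

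On chromosome Y, 5 of 12 genes tested were higher in Tip60 KD and none lower, with differences from -0.08 to 1.85. The 5 calls among 12 are near the 43.8% called over all genes, of which 23.2% were called higher and 20.6% lower. Ddx3y differed by 1.19 and Ube1y1 by 1.24, while Eif2s3y, at 0.04, was not called. Among the 206 genes called at least 2-fold higher, 3 (1.46%) lie on this chromosome, which holds 0.0688% of the genes tested.

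Of 1201 genes with at least 2 called probes, 181 had probes called in opposite directions.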
